A study of Mus musculus with 24 samples.

Results

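Serotonin and adrenergic receptors of the DRG were followed through sciatic nerve lesion in *Nfil3* KO and wildtype (WT) mice, by 7 genes chosen by name. The genes are *Htr1b*, *Htr1d*, *Htr2a*, *Htr3a* and *Htr3b* for serotonin, and *Adra2a* and *Adra2c* for noradrenaline. They are 7 of the 27398 gene names on the array, and all 9 of their probes were used, 3 of them for *Adra2a*. Each probe was read as a log2 intensity, after background correction and quantile normalization, so a difference of 1 is a doubling of signal.

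RNA came from the L4 and L5 DRGs of adult male C57BL/6J mice, either WT or Nfil3_KO. The sciatic nerve had been cut and its ends sutured back together, and the ganglia of the lesioned side were taken at day 2 or day 5. Control ganglia were those of the non-injured side by the paper's methods, and their titles read Day0. The labels do not name the animal they came from. How long after the lesion of the other side they were taken is not stated. There were 6 groups of 4 samples, WT control, WT day 2, WT day 5, KO control, KO day 2 and KO day 5. All KO mice lack *Nfil3* in every cell, since they descend from floxed mice crossed with a line whose Cre acts in germ cells. Although the labels call the tissue DRG neurons, the samples are whole ganglia, with macrophage, satellite glia and Schwann cell transcripts well above background. In such bulk samples fewer cells of a type and less RNA per cell cannot be told apart.

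Serotonin and noradrenaline reach sensory neurons from descending brainstem fibers, sympathetic fibers, blood platelets and mast cells. The receptors encoded by *Htr1b* and *Htr1d* couple to inhibitory Gi/o proteins and are the targets of the triptan migraine drugs. *Htr2a* encodes a receptor that couples to Gq and raises excitability, whereas *Htr3a* and *Htr3b* encode subunits of a serotonin-gated cation channel, in which the *Htr3b* subunit needs the *Htr3a* subunit to form a functional channel. *Adra2a* and *Adra2c* encode alpha-2 adrenergic receptors, also coupled to Gi/o, which reduce transmitter release from nociceptor terminals and respond to clonidine.

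The probes are 60 bases long and stand here because the result for *Adra2a* depends on which of its probes is read. Their mm9 positions come from the annotation columns of the array. No mm9 gene model was used here, so exon, intron and UTR are not given. For *Htr1b*, *Htr1d*, *Htr2a*, *Adra2c* and the upstream *Adra2a* probe the whole probe is shown, and for the others the first 30 bases. All are 5′ to 3′ as the array files list them, with no part in capitals.
Htr1b probe A_52_P103998, chr9:81525015-81525074, minus strand: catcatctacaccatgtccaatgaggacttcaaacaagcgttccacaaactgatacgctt
Htr1d probe A_51_P419551, chr4:135998963-135999022, plus strand: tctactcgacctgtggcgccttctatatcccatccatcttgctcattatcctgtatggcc
Htr2a probe A_51_P395193, chr14:75044950-75105415, plus strand: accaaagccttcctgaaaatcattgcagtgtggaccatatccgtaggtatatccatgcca
Htr3a probe A_51_P175988, chr9:48707582-48707641, minus strand: gcattgtcttccctatcatggctttaaagc
Htr3b probe A_52_P619045, chr9:48743819-48743878, minus strand: ctacagagacaagtatcttattggctattg
Adra2a probe A_51_P423000, chr19:54121975-54122034, plus strand: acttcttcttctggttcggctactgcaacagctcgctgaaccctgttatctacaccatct
Adra2a probe A_51_P434567, chr19:54123300-54123359, plus strand: ggagacttcgtgtttacaacctggtttcta
Adra2a probe A_52_P67493, chr19:54123360-54123419, plus strand: gatctgatttcacgagagaaaaactaaatg
Adra2c probe A_52_P428345, chr5:35623835-35623894, plus strand: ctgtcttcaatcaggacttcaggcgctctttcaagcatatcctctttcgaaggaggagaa
The *Htr2a* probe covers 60466 bases of the genome with 60 bases of sequence, so it reads across a splice junction. A pair of *Adra2a* probes adjoin each other, and the remaining one lies upstream of them on the plus strand. *Htr3a* and *Htr3b* are neighbouring genes on chromosome 9.

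Between 54.5% and 72.3% of the array's probes were well above background in a sample, no spot was saturated, and samples of a group correlated with r of 0.976 to 0.995 over 21529 probes. Replicates 1 and 2 of each group were labelled with Cy3 and replicates 3 and 4 with Cy5, and each array carried a pair of samples. *Nfil3* probe A_52_P500027 had group means of 8.65, 10.52 and 10.91 in WT control, day 2 and day 5, and of 4.67, 4.67 and 4.42 in KO. The library labelled KO control replicate 4 stood apart, with 7.59, and another of its label fields gives day 5. In the KO groups *Nfil3* was well above background in that control, in 2 of 4 samples at day 2 and in 2 of 4 at day 5, where it reached 6.23 and 5.81. *Atf3*, a transcription factor induced by axon injury, rose by 5.12 until day 2 (limma adjusted p = 1.74e-09) and by 5.31 until day 5 (adjusted p = 6.71e-10) over both genotypes. No control reached a lesion sample, but *Atf3* controls were spread from 7.25 to 9.98 in WT and from 7.46 to 9.66 in KO. Those of the injury marker *Sprr1a* ran from 5.83 to 11.68 and from 5.48 to 11.43. Those of *Gap43* ran only from 9.29 to 9.85 and from 9.24 to 9.81. The cause of this spread was not tested.

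Most of these receptors were lower after the lesion, by the probe that stands for the gene, which is its brightest. None passed as higher, although *Adra2a* lay at the threshold at day 5 and passed under other settings. With both genotypes averaged, 4 of 7 fell at day 2, namely *Htr1b*, *Htr1d*, *Htr3b* and *Adra2c*. At day 5 *Htr1b*, *Htr3a*, *Htr3b* and *Adra2c* fell. Over all genes 12.7% fell at day 2 and 13% at day 5, while 9.48% and 10.2% rose. *Htr2a* did not pass the threshold in any comparison. The F test for any lesion change called 5 of 7, against 26.2% of all genes. Among the 14555 genes well above background in all 24 samples the share was 41.3%. *Htr1b*, *Htr1d* and *Htr2a*, well above background in 15, 23 and 17 samples, are not in that narrower set. Of the members inside it, *Htr3a*, *Htr3b* and *Adra2c* passed and *Adra2a* did not. The median difference of the 7 genes was -0.40 at day 2 and -0.62 at day 5, beside -0.02 and -0.03 over all genes. The plot of single samples shows all 9 probes.

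**Figure D1:**
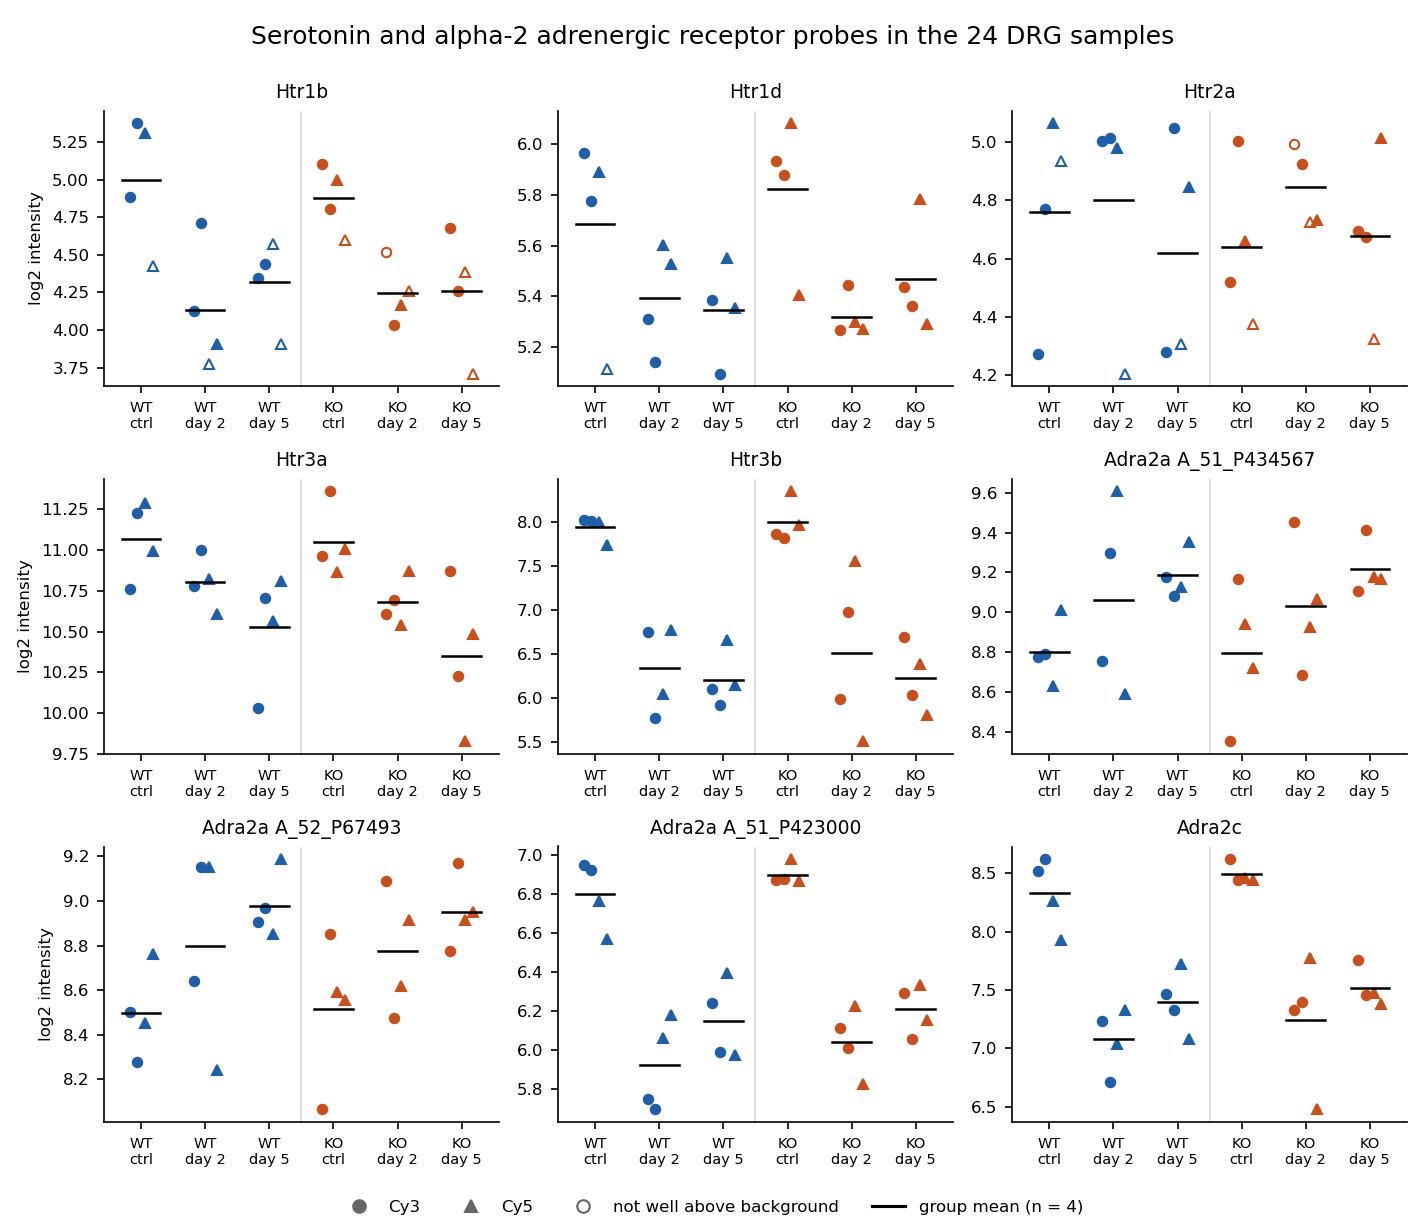
Log2 intensity of each receptor probe (y axis) in the 4 samples of each of 6 groups (x axis), with WT in blue and KO in orange. Circles are Cy3 and triangles Cy5 samples, open symbols were not well above background, and black lines are group means. The lesion samples of *Htr3b*, *Adra2c* and *Adra2a* probe A_51_P423000 all lie below all controls, while *Htr2a* shows no separation.

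*Htr3b*, the subunit that modifies the serotonin-gated channel, fell at both days. In WT controls its log2 intensity was 8.02, 8.01, 7.99 and 7.74. It was 6.74, 5.78, 6.05 and 6.78 in WT at day 2, and 6.11, 5.92, 6.66 and 6.14 at day 5. All WT lesion samples therefore lay below all WT controls. KO controls had 7.86, 7.81, 8.35 and 7.96, KO samples at day 2 had 5.99, 6.98, 7.56 and 5.51, and at day 5 they had 6.69, 6.03, 6.38 and 5.81. Here too no lesion sample reached a control, and the nearest was KO day 2 replicate 3, at 7.56 against the lowest KO control at 7.81. Signal fell 2.91-fold by day 2 (log2 difference -1.54, standard error 0.24, limma adjusted p = 7.38e-05). By day 5 it had fallen 3.36-fold (-1.75, adjusted p = 1.37e-05).

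*Htr3a*, the subunit that every channel of this type contains, fell at day 5. Its log2 intensity was 10.76, 11.23, 11.29 and 10.99 in WT controls, 10.78, 11.00, 10.82 and 10.61 at day 2, and 10.03, 10.71, 10.57 and 10.81 at day 5. In KO it was 10.96, 11.36, 10.86 and 11.01 in controls, 10.61, 10.69, 10.54 and 10.87 at day 2, and 10.87, 10.23, 9.83 and 10.48 at day 5. Lesion samples tended to sit lower, but they overlapped with the controls in both genotypes. Over both genotypes *Htr3a* fell 1.53-fold at day 5 (log2 difference -0.62, standard error 0.14, limma adjusted p = 0.0022). At day 2 the difference was -0.32 with a 95% interval of -0.61 to -0.03, which did not pass (adjusted p = 0.117). Slide as a block put this day 2 value past the threshold (-0.36, adjusted p = 0.0465). Whether *Htr3b* fell by more than *Htr3a* was not tested, since signals of different probes are not on one scale.

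*Htr1b* and *Htr1d*, the inhibitory serotonin receptors, fell moderately and near the lower end of the detectable range. *Htr1b* measured 4.88, 5.38, 5.31 and 4.43 in WT controls, 4.13, 4.71, 3.78 and 3.91 at day 2, and 4.35, 4.44, 4.57 and 3.91 at day 5. In KO it measured 5.11, 4.80, 5.00 and 4.60 in controls, 4.52, 4.03, 4.16 and 4.26 at day 2, and 4.68, 4.26, 4.39 and 3.71 at day 5. KO day 2 samples lay below all KO controls, and the other lesion groups overlapped with their controls. Over both genotypes the day 2 difference was -0.75 (limma adjusted p = 0.00265), that of day 5 was -0.65 (adjusted p = 0.00693), and both had a standard error of 0.17. The *Htr1b* probe was well above background in only 15 of 24 samples, 11 of 12 with Cy3 and 4 of 12 with Cy5. Without background correction the differences of *Htr1b* kept their sign and call but shrank to -0.18 at day 2 and -0.21 at day 5, and with normexp they were -0.21 and -0.18.

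*Htr1d* had 5.96, 5.78, 5.89 and 5.11 in WT controls, 5.31, 5.14, 5.60 and 5.53 at day 2, and 5.39, 5.09, 5.55 and 5.35 at day 5. KO controls had 5.93, 5.88, 6.08 and 5.40, KO day 2 samples 5.27, 5.44, 5.30 and 5.27, and KO day 5 samples 5.44, 5.36, 5.78 and 5.29. Replicate 4 was the lowest control in both genotypes and overlapped with lesion samples, whereas the other controls of a genotype lay above its lesion samples. *Htr1d* fell by 0.40 on the log2 scale until day 2 (standard error 0.12, limma adjusted p = 0.0259), and the day 5 difference of -0.35 just missed the threshold (adjusted p = 0.0502). Without KO control replicate 4, the sample with conflicting labels, the day 5 difference was -0.42 and passed (adjusted p = 0.0154). It passed in 5 of the 24 fits that left out 1 sample, with -0.44 without WT control replicate 4 (adjusted p = 0.00437), and under 7 of 14 other settings. Its size also depended on the background correction, with -0.18 at day 2 and -0.15 at day 5 under normexp, and -0.61 and -0.45 with the scanner's processed signals. Leaving out any of WT control replicates 1 and 3, WT day 2 replicate 2 and KO control replicate 3 ended the day 2 call (adjusted p = 0.0573 to 0.0607).

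*Htr2a*, the Gq-coupled serotonin receptor, showed no detectable change. Its 24 values ran from 4.20 to 5.07, and 17 of 24 were well above background. Group means were 4.76 ± 0.35 (SD, n = 4), 4.80 ± 0.40 and 4.62 ± 0.39 in WT control, day 2 and day 5, and 4.64 ± 0.27, 4.84 ± 0.14 and 4.68 ± 0.28 in KO. The lesion difference was 0.12 at day 2, with a 95% interval of -0.20 to 0.45, and -0.05 at day 5, with an interval of -0.38 to 0.27. Rises in signal as large as the change of *Htr3b* lie outside these intervals. A fall of the transcript by that much is not excluded, since the signal of this probe lay near background.

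*Adra2c*, an alpha-2 receptor of sensory and sympathetic neurons, fell at both days in both genotypes. WT controls had 8.52, 8.62, 8.27 and 7.93, WT day 2 samples 7.23, 6.71, 7.04 and 7.33, and WT day 5 samples 7.47, 7.33, 7.73 and 7.08. KO controls had 8.62, 8.45, 8.46 and 8.44, KO day 2 samples 7.33, 7.40, 7.78 and 6.48, and KO day 5 samples 7.76, 7.46, 7.47 and 7.38. No lesion sample reached a control sample of either genotype. Signal fell 2.38-fold by day 2 (log2 difference -1.25, standard error 0.15, limma adjusted p = 5.06e-06). By day 5 it was 1.94-fold lower than in controls (-0.96, adjusted p = 8.78e-05).

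*Adra2a* gave different answers by probe. The brightest probe, A_51_P434567, had 8.78, 8.79, 8.63 and 9.01 in WT controls, 8.76, 9.30, 9.61 and 8.59 at day 2, and 9.18, 9.08, 9.12 and 9.35 at day 5. In KO it had 8.35, 9.17, 8.94 and 8.72 in controls, 9.45, 8.69, 8.93 and 9.07 at day 2, and 9.11, 9.41, 9.17 and 9.17 at day 5. All day 5 samples lay above 7 of the 8 controls, and day 2 samples were spread over the whole range. The day 2 samples differed from control by 0.25 (limma adjusted p = 0.252) and the day 5 samples by 0.40, with a 95% interval of 0.10 to 0.70, just short of the threshold (adjusted p = 0.0501). This day 5 value passed under 9 of 14 other settings, such as slide as a block (0.42, adjusted p = 0.0412), and in 7 of the 24 fits that left out 1 sample. The neighbouring probe A_52_P67493 rose by 0.46 at day 5 (standard error 0.14, adjusted p = 0.02) and differed by 0.28 at day 2 (adjusted p = 0.177).

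The upstream probe of *Adra2a*, A_51_P423000, moved the other way. It had 6.95, 6.92, 6.76 and 6.57 in WT controls, 5.75, 5.69, 6.06 and 6.18 at day 2, and 6.24, 5.99, 6.40 and 5.97 at day 5. In KO it had 6.87, 6.88, 6.98 and 6.87 in controls, 6.11, 6.01, 6.23 and 5.83 at day 2, and 6.29, 6.06, 6.33 and 6.15 at day 5. Every lesion sample lay below every control sample. On the log2 scale the probe fell by 0.87 until day 2 (limma adjusted p = 5.65e-07) and by 0.67 until day 5 (adjusted p = 1.13e-05), each with a standard error of 0.09. The signal of A_51_P434567 minus that of A_51_P423000 averaged 1.95 in the 8 controls and 3.04 in the 16 lesion samples. This change of 1.09 is a description, since the measure was formed after the values were seen. The same difference from A_52_P67493 changed by 1.14. No direction is given for *Adra2a* as a gene, as its probes moved in opposite directions. Averaged over its 3 probes it differed by -0.11 at day 2 and 0.06 at day 5, and neither passed.

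**Figure D2:**
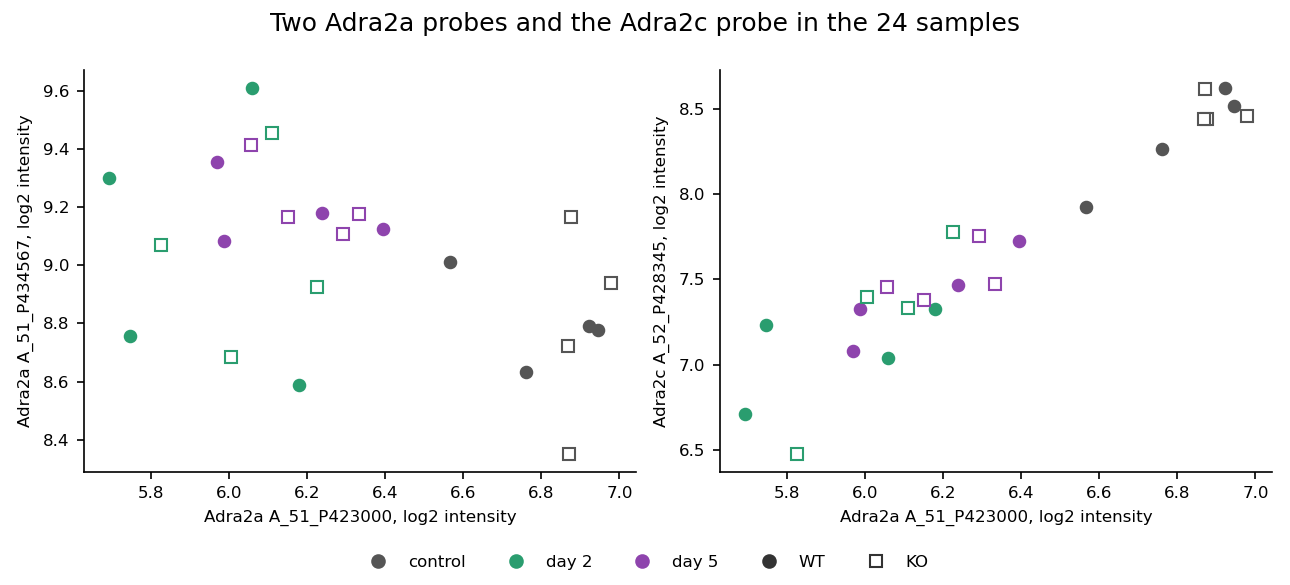
Log2 intensity of *Adra2a* probe A_51_P423000 (x axes) against *Adra2a* probe A_51_P434567 (left) and the *Adra2c* probe (right) in 24 samples, 1 point each. Colors mark control, day 2 and day 5, filled circles WT and open squares KO. The 8 controls lie to the right in both panels, below or among the lesion samples on the left and above them on the right.

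The upstream *Adra2a* probe followed the *Adra2c* probe closely, with r of 0.955 over the 24 samples and 0.752 after the group means were removed, while its r with A_51_P434567 was -0.464. The 2 downstream *Adra2a* probes correlated with each other at 0.947. These are descriptions over samples that share arrays and the lesion. The best ungapped alignment of the upstream *Adra2a* probe and the *Adra2c* probe matched 22 of 60 bases, with a longest shared run of 5 bases. The *Htr1b* probe also matched this *Adra2a* probe at 22 bases, with a longest run of 11. Only probes were aligned, not the upstream probe with the *Adra2c* transcript, so these matches cannot show which transcripts it binds. Whether the upstream probe also binds transcripts of related genes, and whether the transcript ends differ between groups, was not tested.

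The lesion response was next compared within each genotype, which asks whether the changes depend on 1 genotype. *Htr3b* and *Adra2c* fell in all 4 comparisons, that is, at both days in WT and in KO. The differences of *Htr3b* were -1.60 and -1.73 in WT and -1.49 and -1.76 in KO at day 2 and day 5, and those of *Adra2c* were -1.25, -0.93, -1.25 and -0.98. *Htr1b* passed in WT at day 2 (-0.87, limma adjusted p = 0.0225) and differed by -0.68, -0.63 and -0.62 in the other 3 comparisons. *Htr3a* passed in KO at day 5 (-0.70, adjusted p = 0.0231), beside -0.54 in WT (adjusted p = 0.0804). Differences between these genotype results were covered by the interaction test below. In WT 3 of 7 genes fell at day 2 and 2 of 7 at day 5, against 5.77% and 7.45% of all genes. In KO 2 of 7 fell at day 2 and 3 of 7 at day 5, against 6.27% and 6.64%. All 4 comparisons within genotypes draw on shared controls.

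Some of these calls depended on a single sample or on the processing. The *Htr1b* call in WT at day 2 depended on WT control replicates 2 and 3 and on WT day 2 replicates 3 and 4, each of which ended it when left out (adjusted p = 0.0615 to 0.0828). In WT at day 5 *Htr1b* passed under 9 of 14 other settings, among them slide as a block (-0.75, adjusted p = 0.0356) and the replicate block (-0.68, adjusted p = 0.028). The replicate block also called it in KO at day 2 (adjusted p = 0.0461) and day 5 (adjusted p = 0.0488). *Htr3a* passed in WT at day 5 under 5 of 14, among them array as a random block (-0.52, adjusted p = 0.0486). The *Htr1b* call in WT at day 2 was lost also without background correction (-0.19, adjusted p = 0.0635). The *Htr3a* call in KO at day 5 was lost without KO control replicate 2 or KO day 5 replicate 2 or 3 (adjusted p = 0.0662 to 0.0992). Without KO control replicate 4, *Htr1d* also fell in KO at day 2 (-0.65, adjusted p = 0.0255, against -0.51 and 0.0726 with it). In that fit *Htr3b* differed by -1.50 and -1.77 in KO at day 2 and day 5, *Adra2c* by -1.26 and -0.99, and *Htr3a* by -0.71 at day 5, all past the threshold.

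**Figure D3:**
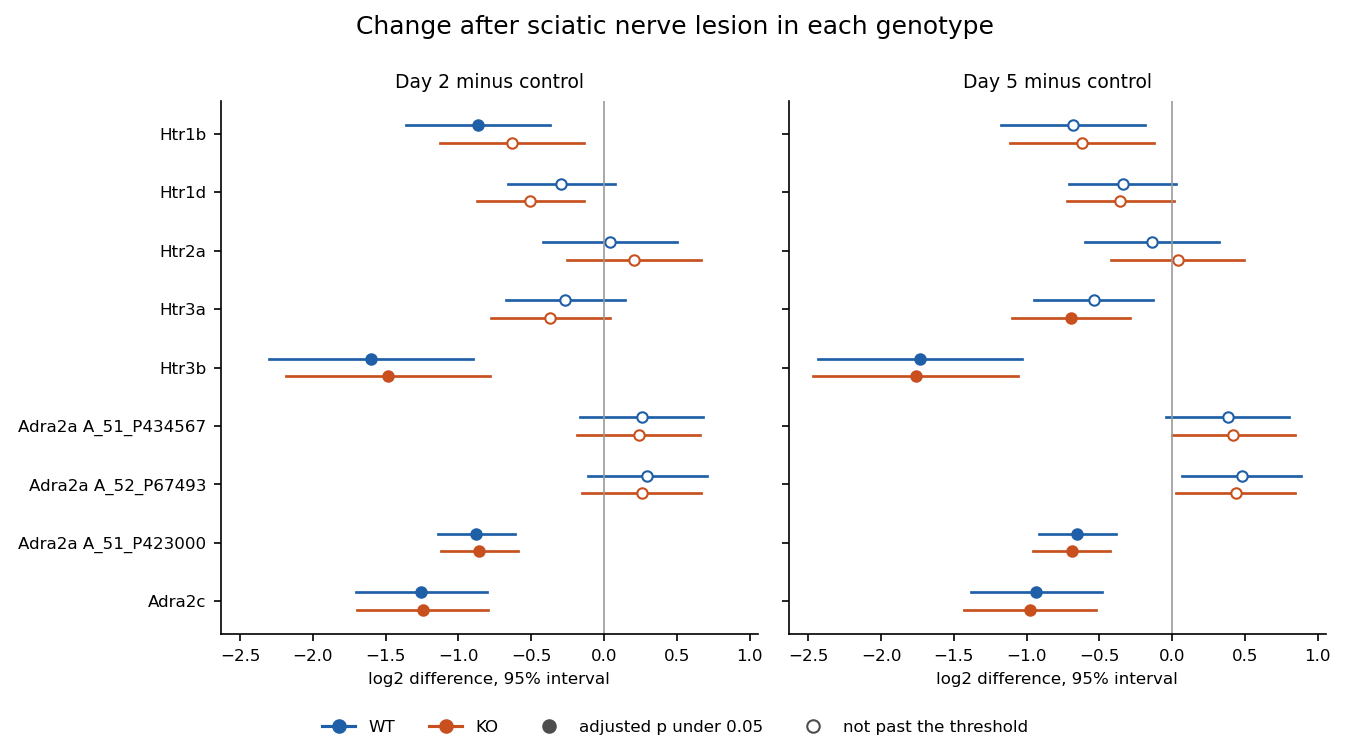
Log2 difference between lesion and control samples (x axes, with 95% intervals) of each receptor probe at day 2 (left) and day 5 (right), in WT (blue) and KO (orange). Filled points passed an adjusted p of 0.05. *Htr3b*, *Adra2c* and the upstream *Adra2a* probe are filled in both genotypes at both days, the upstream *Adra2a* probe lies left of 0 and the other *Adra2a* probes right of it, and the genotypes overlap throughout.

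No receptor passed the test between day 2 and day 5. Over both genotypes 0 of 7 passed, against 3.28% of all genes, and 1 of 7 had an unadjusted limma p under 0.05. That gene was *Htr3a*, with a difference of -0.30 and a 95% interval of -0.59 to -0.01 (adjusted p = 0.307). *Htr3b* differed by -0.20, with an interval of -0.70 to 0.29, and *Adra2c* by 0.30, with -0.02 to 0.61.

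KO and WT were then compared at each time, which asks whether *Nfil3* affects these receptors. No receptor passed, with 0 of 7 past the threshold in controls, at day 2 or at day 5, and 0 with an unadjusted limma p under 0.05. For *Nfil3* itself KO minus WT was not called in controls (-3.98, adjusted p = 1.00), and was called at day 2 (-5.85, adjusted p = 0.00819) and day 5 (-6.49, adjusted p = 0.00259), so in controls this test had missed a difference of that size. Among all genes the share called was 0% in controls, 0.0146% at day 2 and 0.0109% at day 5. For *Htr3b* KO minus WT was 0.05 in controls (95% interval -0.65 to 0.76), 0.17 at day 2 (-0.53 to 0.87) and 0.02 at day 5 (-0.68 to 0.72). For *Adra2c* the differences were 0.16 (-0.29 to 0.61), 0.17 (-0.28 to 0.62) and 0.12 (-0.34 to 0.57). Those of the upstream *Adra2a* probe were 0.10, 0.12 and 0.06, and its interval was narrower, for example -0.14 to 0.39 at day 2. Differences of more than about a doubling lie outside all of these intervals, while some smaller ones lie inside them.

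**Figure D4:**
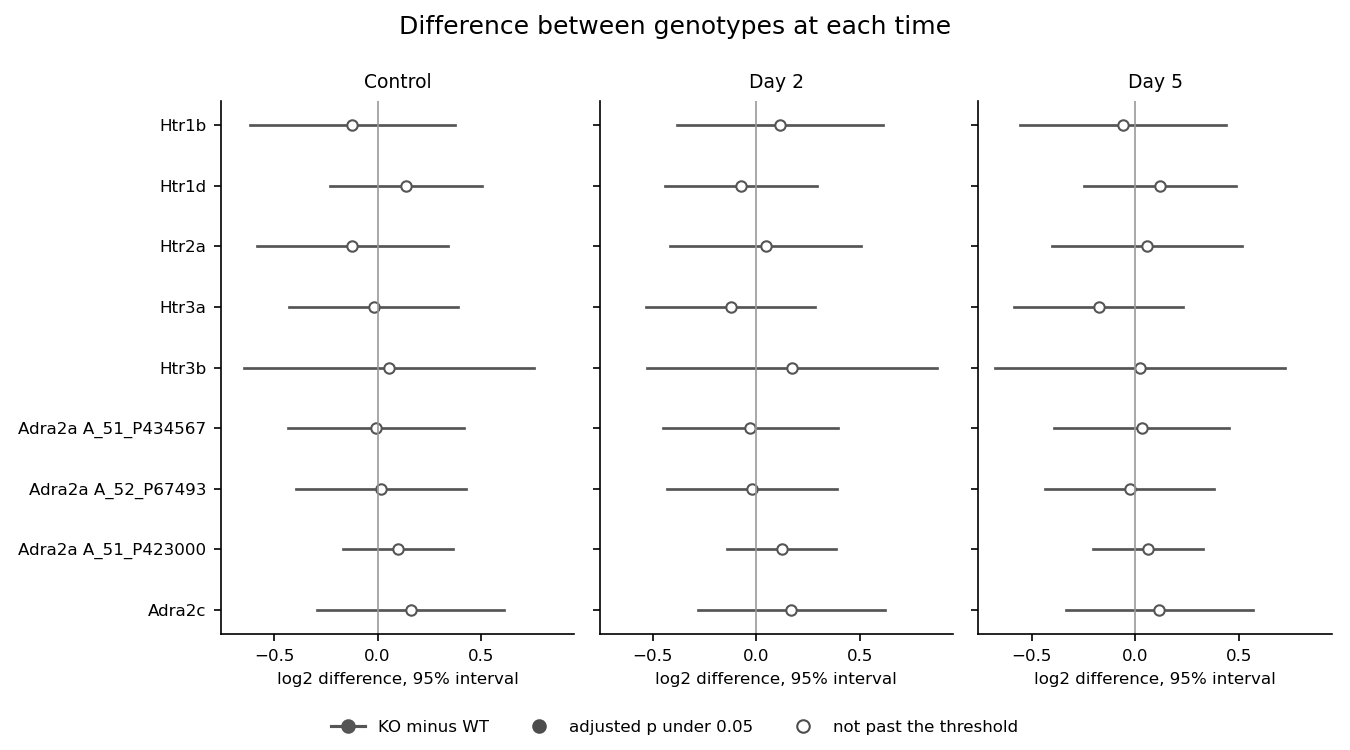
Log2 difference KO minus WT (x axes, with 95% intervals) of each receptor probe in 3 panels for control DRGs, day 2 and day 5. All points are open, since none passed an adjusted p of 0.05, and all intervals span 0.

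The time*genotype interaction called 0 of 7 genes, with 0 at an unadjusted p under 0.05, and 0% of all genes. The lesion change in KO minus that in WT was 0.12 for *Htr3b* at day 2 (95% interval -0.88 to 1.11) and -0.03 at day 5 (-1.02 to 0.96). For *Htr1b*, called in WT at day 2, it was 0.24 (-0.47 to 0.94), and for *Htr3a*, called in KO at day 5, it was -0.16 (-0.73 to 0.42).

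Each slide held 4 arrays, with 3 WT and 5 KO samples on slides 1 and 2 and 6 WT and 2 KO on slide 3. Within the slides, with both days together, *Htr3b* differed by -1.37, -1.68 and -1.88 between lesion and control, and *Adra2c* by -0.89, -1.23 and -1.27. *Htr1b* differed by -0.56, -0.95 and -0.56, *Htr1d* by -0.50, -0.13 and -0.37, and *Htr3a* by -0.49, -0.51 and -0.36. The upstream *Adra2a* probe gave -0.64, -0.79 and -0.88, and A_51_P434567 gave 0.41, 0.39 and 0.19. Directions were thus alike on the 3 slides for these probes, while *Htr2a* gave 0.00, 0.21 and -0.09.

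Markers of the cells of a ganglion, in 10 lists, were read in the same samples. Of 8 sensory neuron markers 5 fell at each day, *Isl1*, *Nefh*, *Nefl* and *Snap25* among them, and *Tubb3* rose at day 5. Of the 6 nociceptor markers on the array 4 fell at day 2 and 5 at day 5, where *Scn10a* differed by -1.14 and *Tac1* by -1.07, while *P2rx3* differed by 0.20 and did not pass. All 5 injury markers rose at each day, as did 3 of 5 macrophage markers at day 2 and all 5 at day 5. Of 5 markers of low-threshold mechanoreceptors and proprioceptors 3 fell at day 2, and 1 rose and 1 fell at day 5. Of 4 satellite glia markers 1 rose and 2 fell at day 2, and 1 rose and 1 fell at day 5. Of 5 Schwann cell markers 2 rose at day 2 and 1 at day 5, and of 6 markers of endothelium and vascular smooth muscle 1 and 2 rose. None of the 4 T cell or 4 fibroblast markers passed at either day. The mean log2 intensity over the macrophage list was taken in each sample. It was 7.48 to 8.13 in WT controls, 8.10 to 8.79 in WT at day 2 and 9.33 to 9.55 in WT at day 5. That of the sensory neuron list was 14.24 to 14.45, 13.91 to 14.15 and 13.96 to 14.05. In KO the macrophage list had 7.44 to 8.08, 7.83 to 8.70 and 9.06 to 9.48, and the sensory neuron list 14.34 to 14.49, 13.79 to 14.13 and 13.83 to 14.05. The part of these shifts in the receptor changes was not tested.

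*Slc6a4*, which takes serotonin up into cells, had log2 intensities of 4.66, 4.47, 4.14 and 5.16 in WT controls and 4.35, 4.36, 3.98 and 4.73 in KO controls. Only 3 of these 8 controls were well above background. WT samples had 9.15, 9.43, 9.01 and 9.09 at day 2 and 9.63, 9.73, 9.78 and 9.46 at day 5, and KO samples had 9.39, 8.93, 8.17 and 9.46 at day 2 and 9.25, 9.72, 9.61 and 9.57 at day 5. All 16 lesion samples were far above all controls and well above background. Over both genotypes *Slc6a4* rose by 4.60 until day 2 (limma adjusted p = 1.21e-13) and by 5.11 until day 5 (adjusted p = 1.59e-14). The size of this rise rests on control signals that were mostly not well above background, so only the separation of the groups, 8.17 or more against 5.16 or less, is measured on both sides.

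Of the 8 genes of serotonin synthesis, transport and breakdown, each read by its brightest probe, 3 rose and 1 fell at day 2, and 3 rose and 2 fell at day 5. Beside *Slc6a4*, *Maoa*, which breaks down serotonin and noradrenaline, rose by 0.43 at each day. *Tph1*, the rate-limiting enzyme of serotonin synthesis outside the brain, rose by 0.70 at day 2 and 0.44 at day 5, on a probe well above background in 18 of 24 samples, and its other probe had the opposite sign. *Ddc*, which makes serotonin from its precursor, fell by 0.46 at day 2 and by 0.53 at day 5. *Slc18a1*, a vesicular monoamine transporter, fell by 0.47 at day 5. The other probe of *Ddc* and of *Slc18a1* had the same sign without passing.

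Among 9 other serotonin receptors, 1 rose and 2 fell at day 2, and 2 fell at day 5. *Htr7*, a Gs-coupled receptor, was 6.31 to 6.93 in WT controls, 5.30 to 6.28 at day 2 and 5.68 to 6.13 at day 5. Over both genotypes it fell by 0.75 until day 2 (limma adjusted p = 0.0104) and by 0.68 until day 5 (adjusted p = 0.0185). *Htr5b* fell by 0.70 until day 2 (adjusted p = 0.0126) and by 1.18 until day 5 (adjusted p = 1.16e-04), and its WT range went from 7.35 to 7.85 in controls to 5.97 to 6.56 at day 5. *Htr1f*, another Gi/o-coupled receptor bound by triptans, rose at day 2 by 0.59 (adjusted p = 0.0074) and differed by 0.19 at day 5 (adjusted p = 0.469). *Htr1a*, *Htr2c*, *Htr4* and *Htr6* were well above background in 9 of 24 samples or fewer.

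*Adra1b* alone among 7 other adrenoceptors passed a test, and only at day 2. This Gq-coupled alpha-1 receptor had 7.64, 7.85, 7.95 and 8.05 in WT controls, 7.39, 7.15, 6.92 and 7.24 at day 2, and 7.97, 7.97, 7.73 and 7.87 at day 5. The fall of 0.70 in day 2 samples passed (limma adjusted p = 6.97e-05), day 5 samples differed by 0.00 (adjusted p = 0.993). On this probe the WT day 2 samples were below all WT controls and the WT day 5 samples among them. Its second probe had another course, with -0.10 at day 2 and -0.44 at day 5, and passed at neither, so the time course of *Adra1b* is not settled.

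Of the 4 genes of noradrenaline synthesis and transport reported here, *Th* fell and *Dbh* rose at day 5, and none passed at day 2. *Th*, the rate-limiting enzyme of noradrenaline synthesis and a marker of a class of low-threshold sensory neurons, ran from 9.88 to 10.82 in WT controls and from 8.67 to 9.02 in WT at day 5. Over both genotypes its day 5 difference was -1.38 (limma adjusted p = 9.47e-05), and that of day 2 was -0.60 (adjusted p = 0.0648). *Dbh*, which converts dopamine to noradrenaline, rose by 0.52 (adjusted p = 0.0169) at signals near background.

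Genes of the proteins that carry the signal of these receptors went both ways. Of 5 Gi/o alpha subunits 3 fell and 1 rose at day 2, and 2 fell and 1 rose at day 5. *Gnao1*, the main Go subunit of neurons, fell by 0.70 and by 0.77 at day 2 and day 5, and its 2 other probes did not pass. *Gnai1* fell by 0.42 and by 0.39, *Gnaz* fell by 0.36 at day 2, and *Gnai3* rose by 0.39 and 0.35. Of 5 Gq and Gs alpha subunits, *Gnaq* fell by 0.52 and by 0.76 at day 2 and day 5, and *Gnal* fell by 0.50 at day 5. Of 7 receptor kinases and arrestins, which switch off and internalize such receptors, 2 rose and 2 fell at day 2, and 2 rose and 3 fell at day 5. *Adrbk1* fell by 0.65 and by 0.82, *Adrbk2* fell by 0.58 and by 1.01, *Grk6* rose by 0.77 and 0.65, and *Arrb1* rose by 0.56 and 0.72. The 2 other probes of *Adrbk2* did not pass. *S100a10*, which brings certain serotonin receptors to the membrane, rose by 0.52 and 0.82, and *Ric3*, a chaperone of the serotonin-gated channel, differed by -0.04 and 0.08. None of the genes of these lists was called for KO minus WT or for the interaction.

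**Figure D5:**
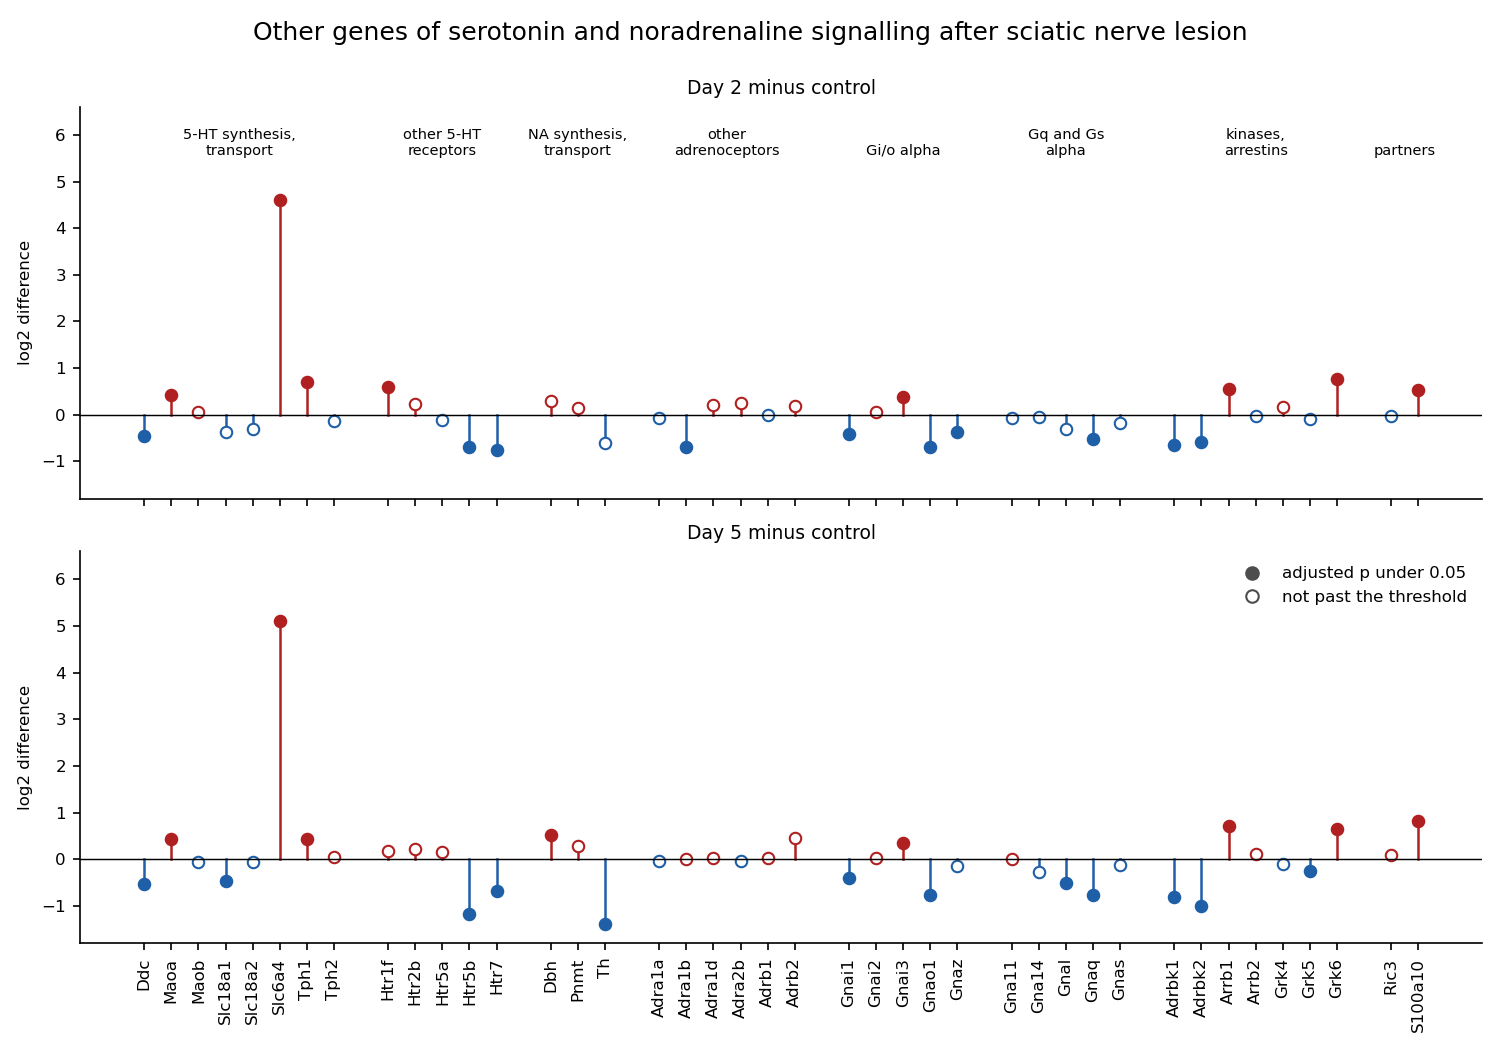
Log2 difference from control over both genotypes (y axes) of other genes of serotonin and noradrenaline signalling at day 2 (top) and day 5 (bottom), for genes well above background in at least 12 of 24 samples. Filled points passed an adjusted p of 0.05, with positive differences in red and negative in blue. The 4.60 and 5.11 of *Slc6a4* were taken against controls of which only 3 of 8 were well above background.

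The genes whose pattern over the 24 samples was most like that of a receptor were listed by Pearson's r among 14485 genes, as a description of samples that share the lesion. For *Htr3b* they were *Serpina3g* (r = 0.978), *Tusc5* (0.978) and *Inadl* (0.977). For *Adra2c* they were *Dfna5* (0.976), *Gm3877* (0.972) and *Fam13a* (0.971), and for *Htr3a* they were *Skp1a* (0.863), *Rpusd3* (0.861) and *Exoc3* (0.856). For *Adra2a* probe A_51_P434567 they were *BC096441* (0.907), *Slamf9* (0.880) and *Sned1* (0.875), and for the upstream probe *Gne* (0.968), *Evpl* (0.960) and *Hoxb6* (0.957). The other downstream *Adra2a* probe, A_52_P67493, was led by *BC096441* (0.904), *Sned1* (0.903) and *Fxyd5* (0.882), so it shared 2 of its 3 leading genes with A_51_P434567, and the upstream probe shared none with either. *Htr3b* and *Adra2c* correlated with each other at 0.911, and at 0.801 after the group means were removed.

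NFIL3 and the related factor CREB bind DNA, so the RefSeq promoter windows of the genes, in build GRCm38.p6, were searched on both strands for their sites. Windows hold the 250 bases before and 50 after a start, and 6 of 7 genes had one, 7 windows in all. No window held the NFIL3 letters TTACGTAA, found in 0.119% of all 32851 windows, or TTATGTAA, found in 0.938%. None held the full CREB site TGACGTCA, found in 1.79%. Its shorter core TGACG, which is also part of the full site, was found in 20.8% of all windows and in that of *Adra2a*. The 250 bases before the start are shown for *Htr3b* and *Adra2c*, the members that fell in every comparison of lesion with control samples. They are given 5′ to 3′ on the strand of the gene, with no match to mark in capitals.
Htr3b, chr9:48964991-48965240, minus strand: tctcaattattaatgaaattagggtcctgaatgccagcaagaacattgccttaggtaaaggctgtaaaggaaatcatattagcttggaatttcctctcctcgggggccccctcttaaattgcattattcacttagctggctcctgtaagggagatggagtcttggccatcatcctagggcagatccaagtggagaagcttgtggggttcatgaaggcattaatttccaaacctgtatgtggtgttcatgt
Adra2c, chr5:35278316-35278565, plus strand: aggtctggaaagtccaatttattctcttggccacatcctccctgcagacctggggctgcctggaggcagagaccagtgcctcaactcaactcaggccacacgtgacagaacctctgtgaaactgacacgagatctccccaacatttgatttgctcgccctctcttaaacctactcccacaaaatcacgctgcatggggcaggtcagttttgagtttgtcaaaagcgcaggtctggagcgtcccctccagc
A missing match says only that these letters are not in the window.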

How the data were processed

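RNA from L4 and L5 DRGs was measured in 24 samples on 12 Agilent 4x44K two-color arrays, with each channel used as a single-color sample. The authors extracted the scans with Feature Extraction 10.7.3.1, and the deposited files hold the foreground and background intensity of each spot and channel, not normalized, and mark outlier, saturated and background-level spots. The array annotation is in mm9. Everything else was computed here in R 4.3.3 with limma 3.58.1. Block correlations used statmod 1.5.0.

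As in the study's methods, the Edwards method subtracted the median background from the mean foreground, and the channels were quantile normalized. Control spots and 417 outlier values were left out, spots of a probe were averaged, and intensities were put on a log2 scale, which gave 41174 probes. Background correction was fitted on all 45018 spots. All 24 samples entered lmFit and eBayes with group means as coefficients. Calls needed 0.05 after Benjamini-Hochberg adjustment across all probes, and each gene was represented by its brightest probe on average. Precision is limited by 4 samples per group. The paper calls them independent replicates, and the labels number them without naming the animals. The p-values therefore measure only the spread between the samples, and whether each sample is a different animal is not stated.

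Samples were grouped by title, and KO control replicate 4 was kept as a control although another label field gives day 5. The members, gene lists and marker lists were chosen with earlier results of these data known. From the noradrenaline list 1 gene is not reported here. Named genes are the members with all probes, the list genes well above background in at least 12 samples that passed the lesion F test, the 3 genes most like each member probe detected in all samples, and *Nfil3* and *Atf3* as checks. Genes that passed a single comparison but not that F test, and those named because they did not pass, are given for completeness, with their values already known. The alternatives were other background corrections (none, normexp with an offset of 50, the deposited processed intensity at a common 75th percentile), the median of the foreground, loess and Aquantile, outliers kept, a filter on dim probes, probes of a gene averaged, dye, slide, replicate number, array or array partner in the model, an intensity trend, and each sample left out in turn. The scripts were tested on simulated data. RefSeq windows are from GRCm38.p6, and no mm9 genome was used here.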

Additional observations from a re-analysis of the deposited data

Results flagged for a closer look

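Within 5 of the 54 groups of 4 samples examined, 6 groups for each of 9 probes, a single sample lay far from the other 3, by a rule that chance meets in about 1 of 20 groups. The number given is the gap of that sample to the nearest other, as a share of the whole range of its group.

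The gap was 0.958 for *Htr2a* in WT at day 2, where replicate 4 had 4.20 and the others 4.98 to 5.01, and this sample was not well above background. It was 0.927 for *Adra2a* probe A_51_P423000 in KO controls, where replicate 3 had 6.98 and the others 6.87 to 6.88. It was 0.912 for *Htr3b* in WT controls, where replicate 4 had 7.74 and the others 7.99 to 8.02. It was 0.897 for *Adra2c* in KO controls, where replicate 1 had 8.62 and the others 8.44 to 8.46. It was 0.83 for *Htr1d* in KO at day 2, where replicate 2 had 5.44 and the others 5.27 to 5.30. No call of *Htr3b*, *Adra2c* or the upstream *Adra2a* probe was lost when any 1 sample was left out.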

How the results depend on the processing

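The calls of *Htr3b*, *Adra2c* and *Adra2a* probe A_51_P423000 held under every alternative in which they were run, and no called difference changed its sign. Sizes moved more, mainly with the background correction. With normexp *Htr3b* differed by -1.01 at day 2 and -1.15 at day 5, and A_51_P423000 by -0.49 and -0.39. Of 943 values of called differences under the alternatives 0 changed sign, and of 2117 values of differences that were not called 82 did. The number of genes called moved by more than 1.5 times in 2 comparisons. In WT at day 5 it rose from 2 to 4 without background correction, with normexp, and when a probe had to be well above background in 4 samples or more. Leaving out 1 sample gave 2 to 4 there, and 4 came without WT control replicate 4. In KO at day 2 it rose from 2 to 4 with the replicate block, and leaving out 1 sample gave 2 to 3. With the replicate block the counts were otherwise 5 for the F test, and 4 and 5 at day 2 and day 5 over both genotypes. They were 3 and 3 in WT, 4 in KO at day 5, and 0 for KO minus WT and for the interaction. The share of all genes called was taken only in the main fit. Counts under other settings therefore do not set the receptors apart from other genes. Deviations from the group means were correlated between samples of different groups with the same replicate number. Over 60 pairs r ran from -0.585 to 0.595 with a mean of 0.050, beside a mean of -0.019 for other pairs of the same dye. Whether replicate numbers pair the samples is not settled by these values. The cause of these shifts was not tested. KO minus WT, the interaction and day 5 minus day 2 gave 0 genes under all alternatives. After the group means were removed, limma estimated a correlation of 0.265 between the samples on 1 array, as a consensus over probes. With array as a random block *Adra2a* probe A_51_P434567 passed at day 5 (0.42, limma adjusted p = 0.0394). Signal over background limits *Htr1b* and *Htr2a*, which were not well above background in 9 and 7 of the 24 samples.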
